A study of Mus musculus with 72 samples.

Results

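A subset of 5 patatin-like phospholipase genes of the mouse, Pnpla3, Pnpla5, Pnpla6, Pnpla7 and Pnpla8, was described in liver, epididymal white adipose tissue (eWAT) and pituitary of adult male offspring. They were taken by name from the gene counts, which hold 5 of these genes among 55416 genes counted, and the set was chosen by the liver counts of Pnpla5, which were lower on the high-fat diet. The liver diet comparisons of these genes are therefore given as a description, with no test. The mice were male FVB.129P2 animals, a strain of FVB with intact sight. Dams ate ad libitum (FED) or were restricted by 20% from embryonic day 15 until weaning on day 21 (CR20). From 8 weeks of age their sons were fed a diet of 10% fat, the control diet (CTRL), or of 45% fat, the high-fat diet (HFD). The feeding lasted 10 weeks in the sequenced males, as the study describes them. The 4 groups, FED-CTRL, FED-HFD, CR20-CTRL and CR20-HFD, held 6 mice each, and the 3 tissues of the same 24 mice gave 72 RNA-seq libraries. Nothing in the labels ties a mouse to its dam or litter, so a p-value measures the spread between these mice only.

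The PNPLA proteins share a patatin domain, a fold named after a potato storage protein, in which a serine and an aspartate form the catalytic pair that cleaves fatty acids from lipids. Pnpla2 encodes adipose triglyceride lipase, the enzyme that starts the breakdown of stored triglyceride, while Pnpla3 (adiponutrin) and Pnpla5 encode relatives that sit on lipid droplets. Pnpla3 is known in liver and fat as a gene that is high after carbohydrate feeding and low in fasting, through the lipogenic transcription factors SREBP1c (encoded by Srebf1) and ChREBP (encoded by Mlxipl). Pnpla6 (neuropathy target esterase) and Pnpla7 encode lysophospholipases of the endoplasmic reticulum, and Pnpla8 encodes a calcium-independent phospholipase A2 of mitochondria and peroxisomes. Pnpla1, a skin gene, and Pnpla2 complete the mouse family and are named only for comparison.

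On the GRCm39 assembly, Pnpla5 (ENSMUSG00000018868) and Pnpla3 (ENSMUSG00000041653) are neighbours on chromosome 15, at chr15:83996557-84007376 on the minus strand and chr15:84051943-84073723 on the plus strand. Their annotated gene starts lie 44567 bp apart and they are read away from each other. Pnpla6 (ENSMUSG00000004565) lies at chr8:3565328-3595054, Pnpla7 (ENSMUSG00000036833) at chr2:24865944-24944083 and Pnpla8 (ENSMUSG00000036257) at chr12:44267948-44374085, all on the plus strand. Pnpla5 overlaps no other annotated gene. The other members overlap 4 (Pnpla3), 1 (Pnpla6), 5 (Pnpla7) and 3 (Pnpla8) annotated genes, some of them antisense, so reads there are uncertain because the strand setting of the counting is not given in the sources used here.

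The 250 bases upstream of the annotated start of each of the paired genes are shown because this neighbouring pair was lower together in liver on the high-fat diet. They were read from GRCm39 at the canonical GENCODE M39 starts, chr15:84007377-84007626 (minus strand) for Pnpla5 and chr15:84051698-84051947 (plus strand) for Pnpla3, and are written 5′ to 3′ on the strand of the gene. Capitals mark matches, on either strand, to the CCAAT box (CCAAT) bound by NF-Y, the E-box CACGTG and the GC box (GGGCGG).
Pnpla5: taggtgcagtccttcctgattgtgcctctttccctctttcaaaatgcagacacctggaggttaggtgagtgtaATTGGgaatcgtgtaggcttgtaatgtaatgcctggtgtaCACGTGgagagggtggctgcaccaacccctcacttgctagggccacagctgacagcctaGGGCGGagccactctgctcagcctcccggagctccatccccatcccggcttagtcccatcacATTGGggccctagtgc
Pnpla3: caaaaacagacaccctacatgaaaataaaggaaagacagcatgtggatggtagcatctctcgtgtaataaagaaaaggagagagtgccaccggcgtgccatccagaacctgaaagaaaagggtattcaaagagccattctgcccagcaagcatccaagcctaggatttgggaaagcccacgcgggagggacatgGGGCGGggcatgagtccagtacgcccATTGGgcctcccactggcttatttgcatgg
The Pnpla5 window held 2 CCAAT boxes, whose first bases were at -177 and -16 from the start, 1 E-box at -137 and 1 GC box at -78. The Pnpla3 window held 1 CCAAT box at -30 and 1 GC box at -56. Neither window held the letters TCACNCCAC, one form of the sterol response element, or TATAAA. Of 21757 protein-coding promoters of the same length, 36.5% held a CCAAT box, 6.27% the E-box, 1.12% TCACNCCAC, 36.3% a GC box and 11.9% TATAAA. None of the motifs searched overlapped another in either window. A match describes letters only, and the window depends on the annotated start: RefSeq (GRCm38.p6) gives the same start for Pnpla5 but one 69 bp further downstream for Pnpla3, and its 300-base window for Pnpla3 held 3 GC boxes.

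Total counts per library ran from 9842813 to 19928212 in liver, from 11589675 to 22364963 in eWAT and from 18299494 to 27601208 in pituitary, and no pair of libraries held identical counts. Summed hepatocyte markers reached 69340 to 115628 CPM (counts scaled to the same total in each library) in liver, and the adipocyte markers Adipoq, Plin1, Lep and Retn were under 1 CPM in every liver library. In eWAT, summed adipocyte markers had group medians of 26091 to 28128 CPM but stood at 10069 CPM in FED-HFD mouse 23 and 11030 CPM in CR20-CTRL mouse 5. In liver, CR20-CTRL mice 4 and 5 stood apart in Pnpla6. They also stood apart in Pnpla2, with 20.6 and 29.7 CPM against 51.6 to 88.3 CPM in the other CR20-CTRL livers. In Pnpla8 the 2 values were 124 and 162 CPM against 77.1 to 107 CPM. For some of the results that rest on these 4 libraries, values without them are also given. The animal numbers were cut here into ranges under 20, from 20 to 39 and from 40 upwards, and what the numbers stand for is not stated. They run in blocks of a single dam group: 4 to 7, 31 to 33 and 45 to 49 are CR20, and 10 to 16, 23 to 24 and 40 to 42 are FED. Each range thus joins separate FED and CR20 blocks, and block and dam group cannot be told apart.

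Liver Pnpla5 was close to absent in mice on the high-fat diet and was counted in every mouse on the control diet. In FED-CTRL livers its counts ran from 5 through a median of 20 to 35, or 0.371, 1.34 and 1.91 CPM. In FED-HFD livers they ran from 0 through 0.5 to 3, and 3 of 6 mice had none. The groups did not overlap. In CR20-CTRL livers the counts ran from 4 through 40.5 to 101, or 0.289, 2.77 and 5.91 CPM, the lowest in mouse 33 and the highest in mouse 47. In CR20-HFD livers 5 of 6 mice had none and mouse 45 had 1, where a count of 0 allows up to 3 counts, or 0.151 to 0.305 CPM in a liver library. Again the groups did not overlap, and across both dam groups the 12 control-diet mice held 4 to 101 counts while the 12 high-fat-diet mice held 0 to 3.

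As means, liver Pnpla5 stood at 1.22 ± 0.714 CPM (SD, n = 6) in FED-CTRL against 0.0696 ± 0.0844 in FED-HFD, and at 2.64 ± 1.99 in CR20-CTRL against 0.00935 ± 0.0229 in CR20-HFD. The log2 fold change (log2FC) of the edgeR fit was -3.89 in sons of FED dams and -7.08 in sons of CR20 dams. With so few counts on the high-fat diet these fitted values depend on the small count added by the fit, and limma voom gave -5.34 for the latter. Without CR20-CTRL mice 4 and 5 the CR20 value was -6.94. Pooled over 6 mice, 123 counts stood against 6 in the FED groups, a ratio per total count of 16.4 (95% exact interval 7.31 to 45.5). In the CR20 groups 247 counts stood against 1, a ratio of 219 (38.95 to 8687). These intervals cover counting error only: reads were pooled over mice, so the spread between mice is left out and the intervals are no test. Fewer cells expressing a gene cannot be told apart from less RNA per cell in bulk tissue. Over all genes the same comparisons called 0.109% (FED) and 0.522% (CR20) of 13787 genes tested, at an adjusted p under 0.055 and an absolute log2FC of at least 0.58. Nothing is read from this for genes that the comparison itself picked.

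**Figure D1:**
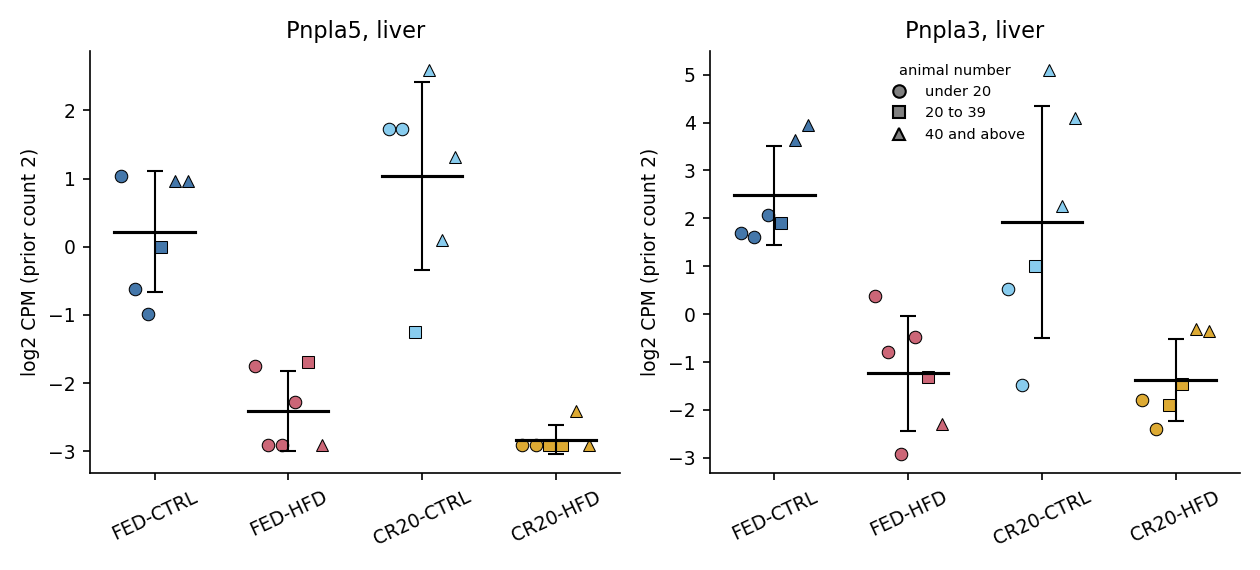
Pnpla3 and Pnpla5 in liver of each mouse, as log2 CPM with a prior count of 2, by group; the marker shape gives the range of the animal number and bars give the mean and SD of 6 mice. Pnpla5 does not overlap between diets in either dam group, and the lowest CR20-CTRL mouse of Pnpla3, with 3 counts, lies among the CR20-HFD mice.

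Pnpla3, the neighbour across the shared interval, was also lower in liver on the high-fat diet and varied more between mice of a group. FED-CTRL livers held 51, 62 and 287 counts (lowest, median and highest), or 2.92, 3.85 and 15.3 CPM. FED-HFD livers held 0, 3.5 and 21 counts, and the highest of these, mouse 10 at 1.16 CPM, was below every FED-CTRL mouse. CR20-CTRL livers held 3, 60.5 and 583 counts, or 0.228, 3.27 and 34.1 CPM, a spread that runs from mouse 5 to mouse 47. CR20-HFD livers held 1, 2.5 and 12 counts, and here the groups overlapped through mouse 5 alone. The log2FC was -3.92 in the FED groups and -4.93 in the CR20 groups, or -5.47 without CR20-CTRL mice 4 and 5. Pooled counts were 678 against 37, a ratio of 14.6 (10.5 to 21.0), and 1025 against 28, a ratio of 32.5 (22.3 to 49.1). Again the intervals cover counting error only and are no test.

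Part of the spread of liver Pnpla3 went with the animal number. All 5 control-diet mice numbered from 40 upwards, at 4.67 to 34.1 CPM, were above the other 7, at 0.228 to 4.08 CPM. On the high-fat diet the ranges overlapped, at 0.0726 to 0.673 CPM against 0 to 1.16. Within each range and each dam group, the control-diet mice were above the high-fat-diet mice with no overlap. These sets held only 1 to 4 mice per diet, with 1 against 1 in FED mice from 20 to 39, so the lack of overlap says little. In sons of CR20 dams, for example, mice numbered under 20 held 0.228 to 1.31 CPM on the control diet against 0.0564 to 0.155 CPM on the high-fat diet, and those from 40 upwards held 4.67 to 34.1 against 0.648 to 0.673 CPM. Control-diet Pnpla5 showed no such order, at 0.371 to 3.19 CPM in mice under 20, 0.289 to 0.862 from 20 to 39 and 0.935 to 5.91 from 40 upwards.

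The other members were abundant in liver and their diet groups overlapped in both dam groups. Pnpla7 had group medians of 125 (FED-CTRL), 101 (FED-HFD), 129 (CR20-CTRL) and 98.4 CPM (CR20-HFD), with a log2FC of -0.41 in FED and -0.42 in CR20 groups. Pnpla8 had medians of 93.4, 89.4, 95.6 and 77.4 CPM in the same order, with a log2FC of -0.01 and -0.36. Without CR20-CTRL mice 4 and 5 the latter became -0.08. Pnpla6 had medians of 32.3, 28.8, 49.0 and 32.0 CPM, with a log2FC of -0.16 and -0.01. The same pair of mice held only 8.16 and 8.88 CPM of Pnpla6 while the other CR20-CTRL livers held 45.3 to 57.9 CPM, and without them the CR20 value became -0.48. Pnpla2, outside the set, had group medians of 72.7, 70.0, 55.6 and 71.6 CPM and was not called in either comparison, with a log2FC of 0.29 (adjusted p = 0.999917) and 0.58 (adjusted p = 0.554, edgeR). CR20-CTRL mice 4 and 5 were the lowest of their group in Pnpla2, and its CR20 value is not given without them.

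Whether the dam's diet altered these genes in the liver was asked at each adult diet, and none of the 5 members was called. None of the 13787 genes was called by edgeR either (0% in each of the maternal comparisons and in the interaction). At an unadjusted p under 0.05 there were 299 genes for CR20-CTRL vs FED-CTRL, 493 for CR20-HFD vs FED-HFD and 242 for the interaction. Calls by DESeq2 numbered 0, 1 and 0 genes, and those by limma voom 0, 0 and 0, none of them a member. Pnpla5 was higher on average in CR20-CTRL than in FED-CTRL livers, but the groups overlapped (log2FC 1.11, SE 0.506, adjusted p = 0.999, exact permutation p = 0.245). Between the high-fat groups its log2FC was -2.08 (SE 1.37, adjusted p = 0.99978, exact permutation p = 0.182), on 1 count against 6. The interaction, the diet effect in CR20 minus that in FED groups, was -3.19 (SE 1.51, adjusted p = 0.999). In liver it is built from the diet comparisons by which the genes were picked. For Pnpla5 it also rests on the same 1 count against 6, and nothing is read from it.

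Pnpla3 gave a log2FC of 0.53 (SE 0.719, adjusted p = 0.999) for CR20-CTRL vs FED-CTRL, whereas its mean difference in log2 CPM was of the opposite sign (-0.56, exact permutation p = 0.619). The sign rests on single libraries: the log2FC was -0.43 without mouse 47, 1.07 without mice 4 and 5, and -0.38 with the number range in the model. Between the high-fat groups Pnpla3 stood at -0.48 (SE 1.13, exact permutation p = 0.833), with -1.52 under the number range, -0.13 by limma voom and the opposite sign without FED-HFD mouse 10 (0.26), and its interaction was -1.01 (SE 1.34, adjusted p = 0.999). Pnpla6, Pnpla7 and Pnpla8 had maternal differences in liver between -0.21 and 0.34 on the log2 scale, none called. For CR20-CTRL vs FED-CTRL, leaving out CR20-CTRL mice 4 and 5 moved Pnpla6 from 0.19 to 0.66 (adjusted p = 0.675), Pnpla7 from 0.13 to 0.035 and Pnpla8 from 0.15 to -0.14. All permutation tests were two-sided and unadjusted, and 6 mice against 6 cannot go below 0.00216.

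Genes of fatty acid synthesis known as SREBP1c and ChREBP targets, 23 in a list drawn up with these results known, were examined beside the pair, and the list is no independent evidence of a direction. In FED-HFD vs FED-CTRL livers, 2 of 23 fell and none rose, all 23 had a negative log2FC, and the median was -1.19 against -0.00 over all genes tested, of which 0.0798% fell and 0.029% rose. Scd1, the stearoyl-CoA desaturase that makes monounsaturated fatty acids, fell with a log2FC of -3.93 (adjusted p = 0.00117). Me1, malic enzyme, which supplies NADPH for fatty acid synthesis, fell by 1.43 (adjusted p = 0.0119). In CR20-HFD vs CR20-CTRL livers, 9 of 23 fell, 21 were negative and the median was -1.34, where 0.384% of all genes tested fell and 0.138% rose. Scd1 fell by 5.39 (adjusted p = 1.2068e-05), Me1 by 2.08 and Acacb, the acetyl-CoA carboxylase that sits on mitochondria, by 2.95. The fatty acid elongase Elovl5 fell by 1.34 and its relative Elovl6 fell by 2.47, and Gpam, which starts triglyceride synthesis, fell by 1.51.

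The transcription factor genes themselves did not pass the edgeR test after adjustment. Srebf1 had a log2FC of -1.27 (unadjusted p = 0.000862, adjusted p = 0.242) in FED and -1.09 (unadjusted p = 0.00324, adjusted p = 0.201) in CR20 groups. Mlxipl had -0.29 and -0.25 (unadjusted p = 0.511 and 0.566). Fasn, fatty acid synthase, had -1.95 and -2.08 (unadjusted p = 0.00645 and 0.00407) and was not called. At an unadjusted p under 0.05, 17 of the 23 list genes were lower and 0 higher in each liver diet comparison. No gene of this list was called in the maternal comparisons or the interaction by edgeR, limma voom or DESeq2, and 1 had an unadjusted p under 0.05, in the interaction. Leaving out 1 mouse moved the FED count between 2 and 7 and the CR20 count between 4 and 11. The limma voom test called 11 and DESeq2 6 in the FED comparison, and without CR20-CTRL mice 4 and 5 the counts were 4 and 8. In the same liver comparisons, none of the 21 tested genes of triglyceride hydrolysis and the lipid droplet, Pnpla2 among them, and none of the 21 tested genes of phosphatidylcholine remodelling was called by edgeR, limma voom or DESeq2. At an unadjusted p under 0.05 the first list had 3 higher in FED and 2 lower in CR20 groups, and the second 1 higher in FED and 1 lower in CR20. Over all 13787 genes tested, 918 (FED) and 1320 (CR20) passed that p in either direction. No gene of the marker lists for hepatocytes, macrophages, fibroblasts, endothelium or bile duct was called in either liver diet comparison, with summed macrophage markers at 142 to 192 CPM in FED-CTRL and 143 to 188 CPM in FED-HFD livers.

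The genes most like Pnpla5 over the 24 livers, by Pearson's r of log2 CPM, were Scd1 (0.92), Me1 (0.92), Acsl5 (0.91), Prss8 (0.88), A4gnt (0.87) and Cmtm6 (0.86). Those most like Pnpla3 were Elovl6 (0.93), Pklr (0.93), Acaca (0.92), Slc17a4 (0.92), Acly (0.92) and Fasn (0.91). Scd1 and Me1 thus headed the list of Pnpla5, while that of Pnpla3 held glycolysis and fatty acid synthesis genes, Pklr being liver pyruvate kinase. These values are a description over mice that share diet groups, and ranking with the group means removed kept 0 of the 6 genes for Pnpla5 and 1 of 6 for Pnpla3. With the means removed, r fell to 0.50 to 0.64 for the Pnpla5 genes and 0.79 to 0.84 for the Pnpla3 genes.

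Relations between single mice were tested with the group means removed, 7 in all, by 100000 permutations within groups with Benjamini-Hochberg adjustment. Liver Pnpla3 went with liver Srebf1 (r = 0.73, adjusted permutation p = 0.000957; rho = 0.72, adjusted p = 0.00234), and r was 0.63 without the 2 mice farthest out. Its r was 0.75 with the number range also removed, 0.83 in the 11 mice under 20 and 0.99 in 7 mice from 40 upwards. Liver Pnpla5 did not show this relation with Srebf1 (r = 0.13, rho = 0.11, adjusted permutation p = 0.612 and 0.594), nor did it pass the test with Pnpla3 (r = 0.36, rho = 0.38, adjusted permutation p = 0.308 and 0.169), where r was 0.15 without 2 mice. In the mice from 40 upwards both were high, at 0.93 and 0.96, against 0.18 and 0.31 in the mice under 20. Whether the relations of Pnpla3 and Pnpla5 with Srebf1 differ was not tested.

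Scd1, which had the highest r with Pnpla5 over the 24 livers, was examined in the same way. Liver Pnpla5 went with Scd1 (r = 0.53, adjusted permutation p = 0.00271; rho = 0.50, adjusted p = 0.00824), and r was 0.56 without 2 mice, 0.57 with the number range removed, 0.61 under 20 and 0.59 from 40 upwards. The adjustment covers the 7 relations but not the choice of genes, which was made with earlier results of these data known. With the group means removed, this r ranked 163 among the 13787 genes tested. Liver Pnpla3 with Scd1 did not pass the test (r = 0.31, rho = 0.27, adjusted permutation p = 0.198 and 0.259), where r was 0.49 without 2 mice, 0.51 with the range removed, 0.65 under 20 and 0.79 from 40 upwards. By diet, this r was 0.01 over control-diet and 0.70 over high-fat-diet mice, against 0.74 and 0.62 for Pnpla5. Whether the relations of the pair with Scd1 differ was not tested. On the high-fat diet Pnpla5 moves over 0 to 3 counts, so counting error is large in that part of these relations.

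**Figure D2:**
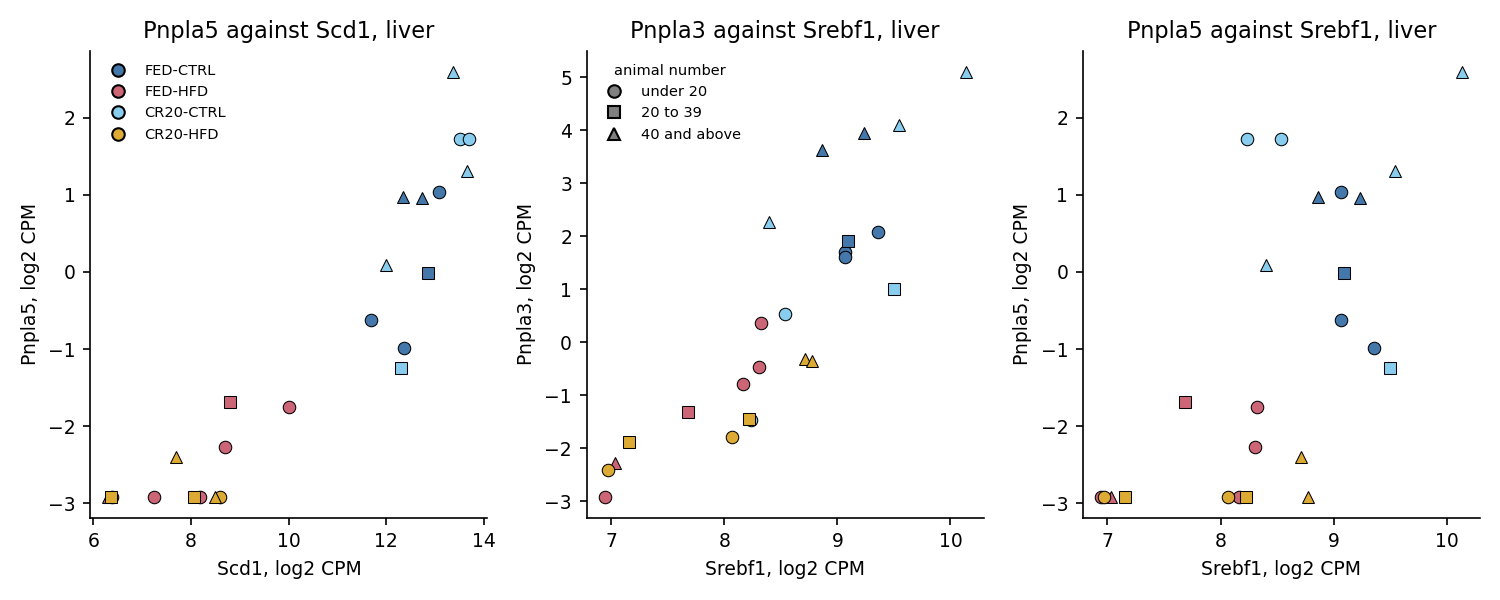
Log2 CPM of pairs of genes in the liver of each of 24 mice, coloured by group, with the marker shape giving the range of the animal number and both axes on the log2 scale with a prior count of 2. The diets lie apart in Pnpla5, while 1 CR20-CTRL mouse lies among the high-fat-diet mice in Pnpla3, and r was tested with the group means removed (0.73 for Pnpla3 with Srebf1, 0.53 for Pnpla5 with Scd1).

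The genes beside the pair on chromosome 15 were examined in the same fits. Of the 3 nearest protein-coding genes on each side (Mpped1, Efcab6 and Sult4a1; Samm50, Parvb and Parvg), only the latter 3 were counted often enough in liver to be tested. None was called in liver. Samm50, whose product belongs to the sorting machinery of the mitochondrial outer membrane, had a log2FC of -0.21 in FED and -0.43 in CR20 groups, the latter with the lowest adjusted p of the 3 (0.215). In eWAT, Parvg, a parvin of blood cells, rose in FED-HFD vs FED-CTRL (1.39, adjusted p = 0.00377) and was lower in CR20-HFD mice than in FED-HFD mice (-1.58, adjusted p = 0.000991). Parvb, the beta-parvin of focal adhesions, was also lower in the second comparison (-0.67, adjusted p = 0.0258).

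In eWAT Pnpla3 was among the abundant messages and was lower on average in FED-HFD than in FED-CTRL mice, without passing the test. FED-CTRL fat held 171, 288 and 358 CPM (lowest, median and highest) and FED-HFD fat 45.7, 121 and 250 CPM, with means of 276 ± 72.4 and 129 ± 68.8 CPM (SD, n = 6). The groups overlapped through FED-HFD mouse 10, at 250 CPM, while the other 5 mice lay below every FED-CTRL mouse. The log2FC was -1.10 (SE 0.413, unadjusted p = 0.0138, adjusted p = 0.0901 by edgeR), with an exact permutation p of 0.00866. Limma voom (-1.02, adjusted p = 0.0159) and DESeq2 (-1.09, adjusted p = 0.0440) called it. Over single mice left out the adjusted p ran from 0.0330 (without FED-HFD mouse 10) to 0.222 (without FED-HFD mouse 23), and without mouse 23 and CR20-CTRL mouse 5 together the log2FC was -0.92 (adjusted p = 0.116). Summed epididymis markers were over 1 CPM in 3 eWAT libraries, CR20-CTRL mice 4 (136 CPM) and 5 (53.0 CPM) and CR20-HFD mouse 6 (26.6 CPM), and without these 3 the log2FC was -1.10 with a call (adjusted p = 0.0489).

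Sons of CR20 dams showed a wider spread of eWAT Pnpla3. CR20-CTRL fat held 60.6, 191 and 428 CPM and CR20-HFD fat 59.0, 166 and 319 CPM, and the groups overlapped over nearly their whole range. The log2FC was -0.35 for the diet in CR20 groups (adjusted p = 0.951), -0.27 for CR20-CTRL vs FED-CTRL (adjusted p = 0.987, and 0.078 without the 3 libraries that held epididymis markers) and 0.47 for CR20-HFD vs FED-HFD (adjusted p = 0.461, exact permutation p = 0.346). The interaction was 0.75 (SE 0.578, adjusted p = 0.503), so a different diet effect between dam groups was not shown. Within number ranges, FED-CTRL and FED-HFD fat held 171 to 271 against 89.6 to 250 CPM under 20, 358 against 45.7 CPM from 20 to 39 and 305 to 336 against 129 CPM from 40 upwards.

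**Figure D3:**
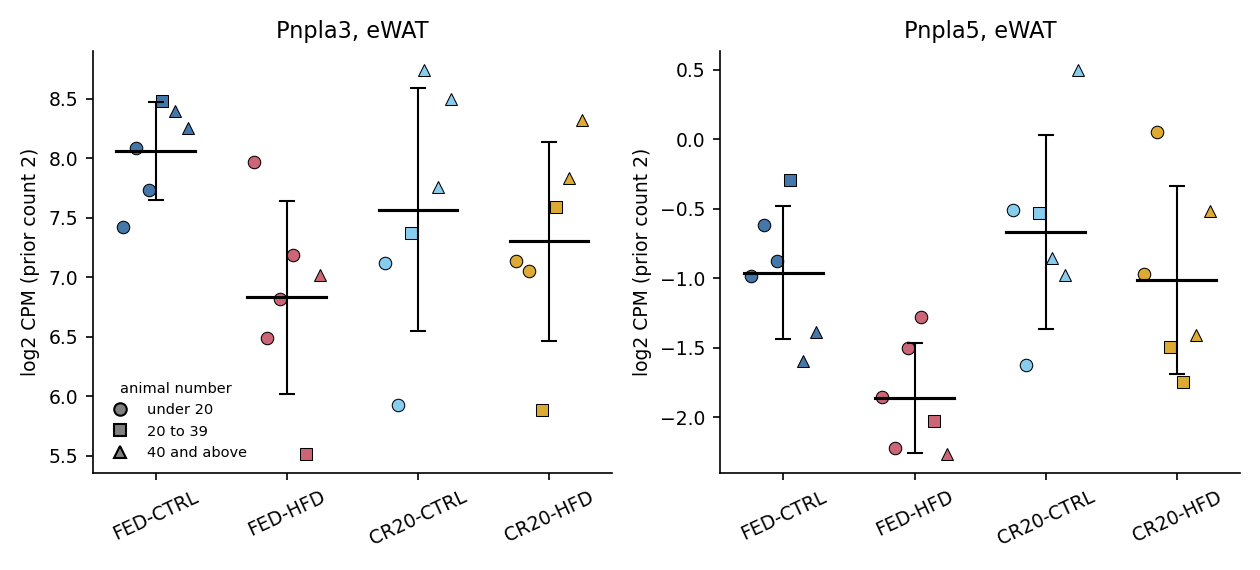
Pnpla3 and Pnpla5 in eWAT of each mouse, as log2 CPM with a prior count of 2, by group; the marker shape gives the range of the animal number and bars give the mean and SD of 6 mice. FED-HFD mice lie lowest on average for both genes, with FED-HFD mouse 10 (250 CPM of Pnpla3) inside the FED-CTRL range.

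Pnpla5 was rare in eWAT, with 2 to 24 counts in each library. FED-CTRL fat held 4, 8.5 and 14 counts, FED-HFD fat 2, 2.5 and 5, CR20-CTRL fat 3, 10 and 24 and CR20-HFD fat 4, 5.5 and 12. All 4 groups overlapped, and FED-HFD had the lowest median. FED-HFD vs FED-CTRL gave a log2FC of -1.27 (SE 0.457, adjusted p = 0.0780 by edgeR, exact permutation p = 0.0108). Pooled counts there were 53 against 19, a ratio of 2.38 (1.39 to 4.26, counting error only). CR20-HFD vs FED-HFD gave 1.24 (SE 0.466, adjusted p = 0.0740, exact permutation p = 0.0238), a comparison that shares the FED-HFD mice with the first, and limma voom gave 0.80 (adjusted p = 0.191). The diet in CR20 groups gave -0.48 (adjusted p = 0.945), with 67 counts against 43, and the interaction was 0.78 (adjusted p = 0.505), or 0.20 by limma voom. Both FED-HFD comparisons crossed the threshold when single CR20 libraries were left out, as listed with the processing alternatives.

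The eWAT groups of Pnpla6, Pnpla7 and Pnpla8 all overlapped. Pnpla6 had group medians of 35.3 to 38.8 CPM, Pnpla7 of 44.5 to 54.3 CPM and Pnpla8 of 153 to 164 CPM. Among these 3 genes Pnpla7 had the largest differences for FED-HFD, at 0.25 (adjusted p = 0.228) for FED-HFD vs FED-CTRL and -0.24 (adjusted p = 0.217) for CR20-HFD vs FED-HFD. FED-HFD mouse 23 was highest for Pnpla7, at 84.6 CPM, and without it and CR20-CTRL mouse 5 the values were 0.11 and -0.10. The edgeR test called 0 of 5 members in each eWAT comparison, against 8.01% of 15964 genes for FED-HFD vs FED-CTRL, 9.73% for CR20-HFD vs FED-HFD, 2.42% for the interaction and 0% for the other comparisons. At an unadjusted p under 0.05 the members numbered 2 in the first of these, where 4106 of 15964 genes passed. They numbered 1 in the second (4761 genes) and 0 in the rest (962 to 2903 genes). In the first, both limma voom and DESeq2 called 1 member, Pnpla3, among 1542 and 1516 genes called.

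Markers of other cells moved with the same eWAT comparisons. Summed macrophage markers lay at 1348 to 2046 CPM in FED-CTRL, 2367 to 14726 in FED-HFD, 894 to 2248 in CR20-CTRL and 992 to 1952 in CR20-HFD fat, none of the 10 under 1 CPM. Of these 10, 9 rose in FED-HFD vs FED-CTRL and 10 were lower in CR20-HFD mice than in FED-HFD mice. Summed adipocyte markers lay at 26571 to 30497 CPM in FED-CTRL and 10069 to 27769 CPM in FED-HFD fat, with 0 of 7 called, and at 27358 to 31766 CPM in CR20-HFD fat, with 1 of 7 higher than in FED-HFD. Summed hepatocyte markers lay at 69.7 to 270 CPM (median 168) in FED-CTRL and 7.80 to 796 CPM (median 68.4) in FED-HFD fat. Of these 6 genes, 2 were called higher in FED-HFD than in FED-CTRL, although the median of the sum was lower. Between the high-fat groups 2 were lower and 1 was higher in CR20-HFD fat. Epididymis markers, of which 2 of 5 were under 1 CPM in every library, summed to 0 to 0.0457 CPM in FED fat but reached 136 CPM in CR20-CTRL and 26.6 CPM in CR20-HFD fat, with medians of 0. Their part in the values of Pnpla3 and Pnpla5 was not tested.

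In FED-HFD vs FED-CTRL fat, 6 of the 21 tested genes of the lipogenic list fell, none rose, 20 had a negative log2FC and the median log2FC was -0.66, where 1.58% of all genes tested fell and 6.42% rose. Leaving out 1 mouse moved the count between 2 and 12, and it was 12 without the 3 libraries that held epididymis markers. Acaca, the cytosolic acetyl-CoA carboxylase, fell by 1.502 (adjusted p = 0.0143) and Fasn by 1.31 (adjusted p = 0.0195). Elovl6 fell by 1.22, Aacs by 0.82, Slc25a1 by 0.75 and Lpin1 by 0.69. Srebf1 (-0.49, adjusted p = 0.145), Mlxipl (-0.66, adjusted p = 0.0691) and Scd1 (-0.52, adjusted p = 0.244) were not called. In CR20-HFD vs FED-HFD fat, 2 of 21 were higher, Acacb (0.84, adjusted p = 0.0511) and Aacs (0.74, adjusted p = 0.0485), a count that leaving out 1 mouse moved between 0 and 4, where 2.45% of all genes tested were higher and 7.29% lower. Of 20 tested genes of triglyceride hydrolysis and the lipid droplet, Lipa, the lysosomal acid lipase, rose by 2.14 (adjusted p = 0.00297) with the high-fat diet in sons of FED dams and Plin2, a lipid droplet coat protein, by 1.05 (adjusted p = 0.00770). Both were lower in fat of CR20-HFD mice than of FED-HFD mice (-2.41 and -1.10). Lipa also passed the interaction test (-2.41, adjusted p = 0.0322), a call lost in 9 of the 24 fits that left out 1 mouse, among them those without CR20-CTRL mouse 5 or 47, and without the 3 libraries with epididymis markers. Of all genes tested, 2.34% passed the interaction test with a negative sign and 0.0877% with a positive one. In the phosphatidylcholine list Gdpd1, a lysophospholipase D, alone was called (1.46, adjusted p = 0.0340, FED-HFD vs FED-CTRL), and it was lost without mouse 23 and CR20-CTRL mouse 5. Pnpla2 had a log2FC of -0.28 (adjusted p = 0.430) and 0.40 (adjusted p = 0.213) in these comparisons.

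Levels of Pnpla3 in fat and liver were also related across mice. With group means removed, liver and eWAT Pnpla3 of the same mouse gave r = 0.73 (adjusted permutation p = 0.000957) and rho = 0.70 (adjusted p = 0.00245), with r = 0.58 without 2 mice. It was 0.61 with the number range also removed, 0.68 in 11 mice under 20 and 0.87 in 7 mice from 40 upwards. It was 0.91 over control-diet mice but 0.52 over high-fat-diet mice and 0.40 over sons of FED dams. CR20-CTRL mouse 47 had the highest and mouse 5 the lowest value of its group in both tissues. Within eWAT, Pnpla3 went with Srebf1 (r = 0.71, adjusted permutation p = 0.000957; rho = 0.70, adjusted p = 0.00234), at r = 0.78 without 2 mice, 0.61 with the range removed, 0.67 under 20 and 0.35 from 40 upwards. The 2 mice left out were CR20-CTRL mouse 5 and CR20-HFD mouse 31. FED-HFD mouse 23, which was low in adipocyte markers and lowest of its group in Pnpla3, stayed in. The part of adipocyte content in this relation was not tested. Among the genes most like eWAT Pnpla3 over the 24 mice were Cables1 (0.93), Gm6277 (0.90), Dhx32 (0.90), Gm14257 (0.89) and Trub2 (0.89), given as a description.

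In pituitary, Pnpla5 was not detected in 22 of 24 libraries, the others holding 1 count (FED-HFD) and 2 counts (CR20-CTRL). A count of 0 allows up to 0.109 to 0.164 CPM there, and the gene did not pass the filter for testing. The remaining 4 members were tested and 0 were called, against 0% of 16657 genes in each of the 5 comparisons by edgeR. At an unadjusted p under 0.05, 1 member passed, Pnpla8 in CR20-CTRL vs FED-CTRL, where 2887 genes did. Limma voom called 72 genes and DESeq2 54 in that comparison, no member among them. Pnpla8 held 18.6, 30.1 and 44.3 CPM in FED-CTRL and 32.3, 40.4 and 44.2 CPM in CR20-CTRL pituitaries (log2FC 0.33, SE 0.124, adjusted p = 0.173, exact permutation p = 0.0498). The groups overlapped, and the difference was under the fold required for a call in every fit. Pnpla3 had group medians of 3.39 to 4.05 CPM, with the lowest in FED-HFD (log2FC -0.30 against FED-CTRL, adjusted p = 0.663, exact permutation p = 0.165). No gene of the lipogenic, triglyceride or phosphatidylcholine lists was called in pituitary by edgeR, limma voom or DESeq2. Between 2 and 5 of 22 lipogenic genes had an unadjusted p under 0.05, where 1127 to 2887 of 16657 genes did over the 5 comparisons.

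**Figure D4:**
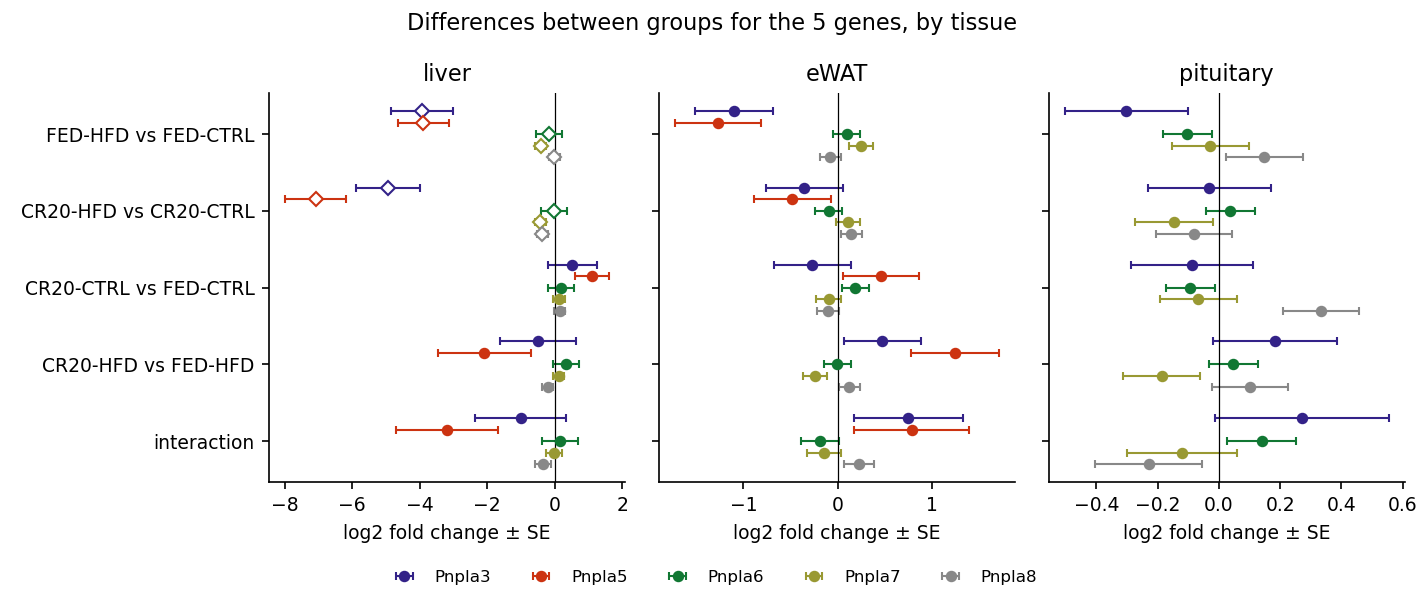
Log2 fold change with its SE for the 5 genes in each comparison and tissue, from edgeR. The SE is the absolute log2FC divided by the square root of the F statistic. Open diamonds are the liver diet comparisons, given without a test, so their bars are not read as one. Filled circles are tested comparisons. Pnpla5 lies at -3.89 and -7.08 and Pnpla3 at -3.92 and -4.93 in the liver diet comparisons, and no tested comparison was called.

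Per length, the tissues ranked the genes differently. In TPM, counts per exon length scaled to the same sum in each library, Pnpla3 had a median of 146 in eWAT (41.3 to 370 over 24 mice), 1.38 in pituitary (0.744 to 2.23) and 0.613 in liver (0 to 22.8). Its eWAT range lay above both others, which overlapped each other. Liver Pnpla3 had a median of 2.50 TPM over the 12 control-diet mice and 0.162 TPM over the 12 high-fat-diet mice, so its place against pituitary depended on the diet. Pnpla5 was low everywhere, with medians of 0.704 TPM in eWAT (0.199 to 2.54), 0.357 in liver (0 to 9.69) and 0 in pituitary (0 to 0.0805), and its eWAT and liver ranges overlapped. Its highest single values came from control-diet livers.

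Pnpla7 was highest in liver, at 34.4 TPM (21.3 to 56.1) against 18.4 in eWAT (15.6 to 36.4) and 2.82 in pituitary (1.75 to 3.67), the first pair overlapping. Pnpla8 was highest in eWAT, at 35.96 TPM (25.5 to 43.1) against 16.5 in liver (12.0 to 24.4) and 3.49 in pituitary (1.98 to 5.30), with no overlap between tissues. Pnpla6 differed least, with medians of 13.8 TPM in eWAT, 10.2 in liver and 9.27 in pituitary and overlapping ranges. Within control-diet liver the medians ran in the order Pnpla7 (40.8 TPM), Pnpla8 (17.5), Pnpla6 (12.3), Pnpla5 (2.90) and Pnpla3 (2.50), and each of the last 4 overlapped its neighbour in this order, while Pnpla7 lay above them all. The length used joins all annotated exons of a gene, at 2172 bp for Pnpla5, 5323 for Pnpla3, 11155 for Pnpla6, 11179 for Pnpla7 and 19191 for Pnpla8. The order between genes depends on these lengths and need not be that of the transcripts. In eWAT the median of Pnpla3, at 146 TPM (41.3 to 370), stood above those of the other members, though its range overlapped that of Pnpla8. It lay below Pnpla2, at 2294 TPM (1039 to 3341). In CPM, which takes no account of length, the eWAT medians of Pnpla3 and Pnpla8 were 182 and 161. Liver RNA was extracted by another method than that of eWAT and pituitary, so tissue and extraction cannot be told apart, and no test was made between tissues.

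**Figure D5:**
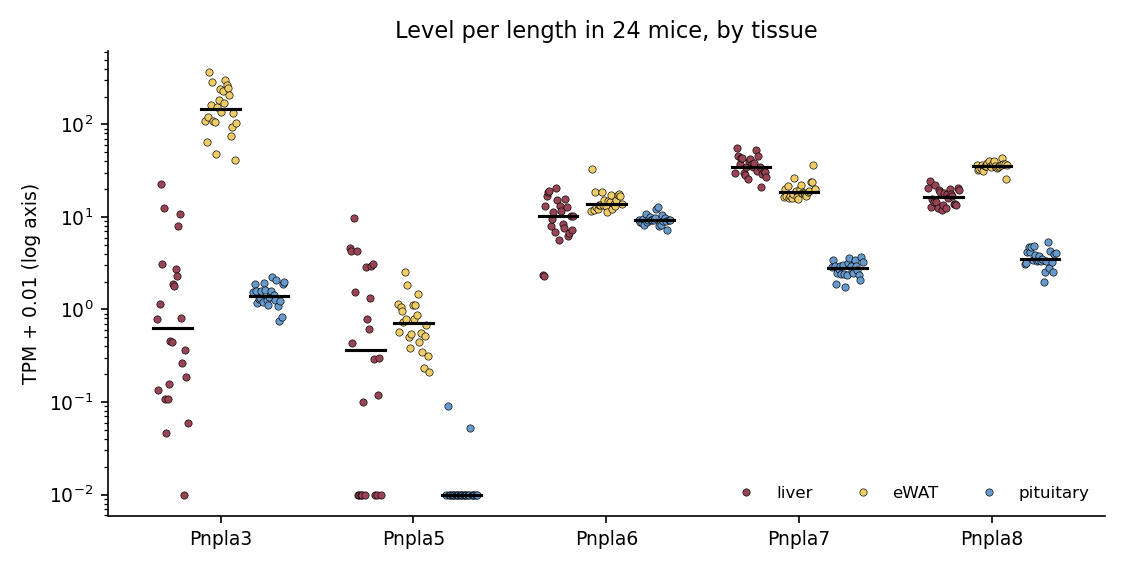
TPM of each of the 5 genes in liver, eWAT and pituitary of 24 mice (points) with the median (line), on a log axis after adding 0.01. Pnpla3 in eWAT (median 146 TPM) lies apart from its liver and pituitary values, and Pnpla5 lies near the bottom in all 3 tissues.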

How the data were processed

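RNA of liver, eWAT and pituitary from 24 male offspring was sequenced as 72 libraries, 6 per group and tissue, grouped by the sample titles. Per the labels and the methods of the study, the authors trimmed reads with Trimmomatic after FastQC, aligned them to GRCm39 with STAR and counted them per gene with featureCounts of Subread, and the deposited unit is raw counts. The libraries were made with a stranded Illumina TruSeq kit, named as total RNA in the labels and in part as mRNA in the methods, and liver RNA was extracted with columns, the other tissues with RNAzol. Total counts and the precision they give stand in the report.

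Gene names came from GENCODE M39 (54749 of 55416 genes matched, 667 did not). Each tissue was fitted alone with edgeR 4.0.16 in R 4.3.3 (filterByExpr, TMM, quasi-likelihood test, 4 group means over 24 libraries). Calls needed an adjusted p under 0.055, by Benjamini-Hochberg over all genes tested, and an absolute log2FC of at least 0.58, as in the methods of the study. Values are CPM or log2 CPM with a prior count of 2, and TPM used merged exon lengths. Single members were also compared by exact two-sided permutation over the 924 divisions of 12 mice, with scipy 1.17.1. On simulated counts with 200 genes changed by a log2FC of 2 between CR20-CTRL and CR20-HFD, the same test recovered 191 in liver, 185 in eWAT and 194 in pituitary, with 8, 7 and 8 wrong calls among 13635, 15849 and 16484 genes. The members, the 3 lists of 23 genes and the rules for named genes were chosen with earlier results of these data known. Named were the 5 members, list genes called (at most 6 per list and comparison), Srebf1, Mlxipl, Fasn, Scd1, Pnpla1 and Pnpla2, the 6 genes most like a member, and 3 coding neighbours on each side, of which 1 gene like Pnpla3 in eWAT is not reported here. Alternatives were limma 3.58.1 voom with quality weights, DESeq2 1.42.0, edgeR with the size factors of DESeq2, edgeR unfiltered or keeping genes over 1 CPM in 6 libraries, the number range as covariate, other thresholds, other measures of likeness and each mouse left out. Leaving out FED-HFD mouse 23 with CR20-CTRL mouse 5 (eWAT), CR20-CTRL mice 4 and 5 (liver), and these 2 with CR20-HFD mouse 6 (eWAT) was added after seeing the data. Motifs were counted by letters in 250 bases before each canonical start.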

Additional observations from a re-analysis of the deposited data

Results flagged for a closer look

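In eWAT, Pnpla7 of CR20-HFD mouse 31 stood at 6.08 log2 CPM, while the other 5 mice of its group lay between 5.42 and 5.65. Its gap to the nearest mouse was 0.657 of the range of the group, above the critical value of Dixon's test for 6 values. It was the only value flagged among 60 groups of 6 mice over the 5 members and 3 tissues, where chance marks about 1 in 20 groups. Pnpla5 groups in which 5 of 6 mice had no count (liver CR20-HFD, pituitary FED-HFD and CR20-CTRL) were not flagged. In these the gap to the 1 counted mouse is the whole range of the group, so they also exceed the critical value. Without CR20-HFD mouse 31 the Pnpla7 log2FC for CR20-HFD vs FED-HFD was -0.35 (adjusted p = 0.0546, edgeR), below the fold required for a call.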

How the results depend on the processing

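Of 1923 values of 63 results recomputed under the alternatives, 1819 kept their direction and side of the threshold, 38 gained and 54 lost a call or changed a count upwards or downwards, 10 reversed and 2 moved beyond the spread between mice. The cause was not tested. Liver Pnpla3 for CR20-CTRL vs FED-CTRL turned to -0.38 with the number range as covariate and ran from -0.43 (without CR20-CTRL mouse 47) to 0.94 with 1 mouse left out, or 1.07 without CR20-CTRL mice 4 and 5. For CR20-HFD vs FED-HFD it ran from -0.92 to 0.26, the latter without FED-HFD mouse 10, with -1.52 under the number range. For CR20-CTRL vs FED-CTRL, liver Pnpla6 turned to -0.14 with the number range, Pnpla7 to -0.018 by limma voom, and Pnpla8 to -0.069 by limma voom and -0.14 without mice 4 and 5. With 1 mouse left out, Pnpla7 ran from -0.029 (without CR20-CTRL mouse 5) to 0.24 and Pnpla8 from -0.017 (without the same mouse) to 0.22. Liver Pnpla5 for the CR20 diet comparison was -5.34 by limma voom and ran from -8.31 (without CR20-HFD mouse 45) to -6.67 (without CR20-CTRL mouse 47).

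In eWAT, Pnpla3 for FED-HFD vs FED-CTRL was called by limma voom (-1.02) and DESeq2 (-1.09) and ran from -1.40 to -0.93 with 1 mouse left out, with a call without CR20-CTRL mouse 5 or FED-HFD mouse 10. Without the 3 libraries with epididymis markers it was called (-1.10), so that members called numbered 1, and its CR20-CTRL vs FED-CTRL value turned to 0.078. Pnpla5 ran from -1.47 to -1.07, with a call without CR20-CTRL mouse 5 or 49, and for CR20-HFD vs FED-HFD from 0.92 to 1.45, with a call without CR20-CTRL mouse 5 or 49 or CR20-HFD mouse 32. Members called in FED-HFD vs FED-CTRL thus numbered 1 by limma voom and 1 by DESeq2, where these called 1542 and 1516 genes. With 1 mouse left out, members called numbered 0 to 2 there and 0 to 1 in CR20-HFD vs FED-HFD. The filter of over 1 CPM removed eWAT Pnpla5, and DESeq2 gave it no adjusted p for FED-HFD vs FED-CTRL. Lipogenic genes called in eWAT FED-HFD vs FED-CTRL numbered 10 by DESeq2, 3 at a minimum log2FC of 1 and 2 to 12 with 1 mouse left out; in liver CR20 groups they numbered 5 with the number range.

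Genes called by edgeR, limma voom and DESeq2 numbered 15, 52 and 49 for liver FED-HFD vs FED-CTRL, 72, 121 and 151 for the CR20 diet comparison, 387, 177 and 820 for the eWAT interaction, 0, 0 and 150 for eWAT CR20-CTRL vs FED-CTRL and 0, 72 and 54 for that comparison in pituitary. No paired analysis was possible because the groups compared held different mice and shared no replicate number. Depth limits Pnpla5, whose counts of 0 to 3 in high-fat-diet liver leave the size of the difference loose.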
